A study of Mus musculus with 3 samples.

Results

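The 9 genes described here act on ferroptosis through routes other than glutathione peroxidase 4, and they are followed across 3 libraries of mouse gastric organoids. They were taken from the deposited expression table by gene symbol, which gave 1 row for each of the 9 symbols among 56691 rows in all. Counted as defences are 6 of them: Aifm2, Gch1, Dhodh, Vkorc1l1, Mboat1 and Mboat2. The other 3, Por, Cyb5r1 and Sat1, are counted as pro-ferroptotic. RNA was sequenced from 3 cultures grown in Matrigel in a medium for proliferation, with 1 library in each of 3 groups. The Mist1- and Mist1+ organoids carry a wild-type genotype label, and the third culture is labelled Gpx4 KO-Mist1+. The mice were about 8 weeks old. They were either Mist1Cre/ERT2;RFPLSL or, with a loxP-flanked Gpx4 in addition, Gpx4F/F;Mist1Cre/ERT2;RFPLSL. All cultures therefore share an inducible Cre driven by Mist1, a transcription factor gene of secretory cells, and a Cre-dependent red fluorescent reporter. The titles of the 3 cultures also carry the label P5. With 1 library per group, culture, animal and group cannot be told apart, no test between groups was possible, and every interval below covers counting error only.

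Ferroptosis is an iron-dependent cell death in which phospholipids with polyunsaturated tails are oxidised faster than the peroxides are removed. Glutathione peroxidase 4 removes such peroxides directly, while other systems stop the chain reaction with small reduced molecules: Aifm2 (also called FSP1) and Dhodh reduce ubiquinone at the plasma membrane and in mitochondria, Gch1 starts the synthesis of tetrahydrobiopterin, and Vkorc1l1 reduces vitamin K. Mboat1 and Mboat2 place monounsaturated tails on phospholipids, which leaves fewer oxidisable ones, whereas Por and Cyb5r1 pass electrons from nicotinamide cofactors to oxygen and iron and so feed peroxidation, and Sat1 acetylates spermidine and spermine.

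All 9 genes were detected and reached an FPKM (fragments per kilobase of exon, scaled to the counted reads of the library) of at least 1 in all 3 libraries. They lie on 8 chromosomes, and the same 9 gene identifiers and exonic lengths stand in GENCODE M21, whose positions on GRCm38 are given here. The table's own start positions differed from M21 for all 9 genes although the gene spans were the same, so those positions are not printed. Aifm2 (ENSMUSG00000020085) is at chr10:61715263-61739260 on the plus strand, Gch1 (ENSMUSG00000037580) at chr14:47153895-47189413 on the minus strand and Dhodh (ENSMUSG00000031730) at chr8:109591343-109608673 on the minus strand. Vkorc1l1 (ENSMUSG00000066735) is at chr5:129941970-129986692, Mboat1 (ENSMUSG00000038732) at chr13:30136489-30246717 and Mboat2 (ENSMUSG00000020646) at chr12:24830879-24964397, all on the plus strand. Por (ENSMUSG00000005514) is at chr5:135670033-135735326 and Cyb5r1 (ENSMUSG00000026456) at chr1:134405559-134411740, both on the plus strand, and Sat1 (ENSMUSG00000025283) is at chrX:155213132-155216449 on the minus strand. Counts are summed over all transcripts of a gene. In M21 the exons of Aifm2 share 233 bases with H2afy2 and those of Mboat2 share 107 bases with 2900060N12Rik, each on the opposite strand. The strand setting of the counting is not given in the sources used here, so reads in these shared bases cannot be assigned with certainty. H2afy2 had 19, 41 and 21 counts in the Mist1-, Mist1+ and Gpx4 KO libraries, and 2900060N12Rik had 1, 1 and 0.

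Gch1, Mboat2 and Sat1 had the widest range of levels over the 3 libraries, and for that reason the 250 bases before their RefSeq start sites (GRCm38.p6) are shown, 5′ to 3′ on the strand of the gene. Capitals mark GC boxes (GGGCGG on either strand) and, in Gch1, the letters TATAAA on the opposite strand. The windows are chr14:47189414-47189663 on the minus strand for Gch1, chr12:24831349-24831598 on the plus strand for Mboat2 and chrX:155216450-155216699 on the minus strand for Sat1, and none of the 3 holds exonic bases of its gene in M21.
Gch1: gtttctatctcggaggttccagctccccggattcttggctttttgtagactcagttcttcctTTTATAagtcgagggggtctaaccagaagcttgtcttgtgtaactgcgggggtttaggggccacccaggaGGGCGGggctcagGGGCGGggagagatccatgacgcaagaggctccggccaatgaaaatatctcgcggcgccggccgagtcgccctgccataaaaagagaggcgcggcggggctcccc
Mboat2: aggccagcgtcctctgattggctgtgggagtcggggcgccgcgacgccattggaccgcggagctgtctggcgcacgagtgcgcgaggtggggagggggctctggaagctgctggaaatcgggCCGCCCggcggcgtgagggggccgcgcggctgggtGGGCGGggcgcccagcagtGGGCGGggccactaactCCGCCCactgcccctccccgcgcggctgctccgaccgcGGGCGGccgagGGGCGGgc
Sat1: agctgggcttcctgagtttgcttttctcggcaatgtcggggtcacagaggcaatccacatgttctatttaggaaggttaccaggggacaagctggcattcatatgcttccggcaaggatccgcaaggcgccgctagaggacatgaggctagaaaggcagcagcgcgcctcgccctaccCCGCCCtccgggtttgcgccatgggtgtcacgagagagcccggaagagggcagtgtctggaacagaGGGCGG
Sequences of this kind were found for 8 of the 9 genes, all but Dhodh. A GC box stood in 6 of the 8 windows, beside 32.7% of 32851 RefSeq windows of the same length. These 6 windows were 59.2% to 81.2% G and C, beside a median of 52.4% over all windows. The part of base composition in the number of GC boxes was not tested. Mboat2 had 6 such boxes, Vkorc1l1 5, Por 4, Gch1 and Sat1 2 each, and Mboat1 1. The cores of 3 response elements, also searched on both strands, were in none of the 8 windows: that of the antioxidant response element (TGACNNNGC, in 10.2% of all windows), of the hypoxia response element (ACGTG, in 16.6%) and of the amino acid response element (TGATGNAA, in 3.45%). These are matches of letters in 1 window per gene and describe no binding.

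The libraries held between 14943918 and 16396693 counts, and between 19758 and 21835 genes had at least 1 count. Gpx4, the gene named in the label, was at 170.8 FPKM in the Mist1- culture, at 71.6 in Mist1+ and at 90.9 in the third. The table counts the whole gene, undeleted exons among them, and so cannot test whether the targeted part is missing. Since the level was not lower than in Mist1+, the third library is called here the library labelled Gpx4 KO-Mist1+, and directions drawn from it belong to that label. Bhlha15, which encodes Mist1, was at 5.40, 10.25 and 6.46 FPKM, so the third library, although labelled Mist1+, was 1.59-fold (1.39 to 1.81) below Mist1+ and closer to Mist1-. Markers fixed for the epithelium (Epcam, Krt8, Krt18, Krt19 and Cdh1) were all above an FPKM of 1, with summed levels of 3312, 2358 and 2405 FPKM. Of 5 fibroblast, 3 endothelial and 6 enteroendocrine markers none reached an FPKM of 1 in any library, and of 5 immune markers Cd68 alone did. Cd68 was at 4.37, 5.06 and 24.4 FPKM, while Ptprc, which marks all leukocytes, had 1, 1 and 0 counts.

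**Figure D1:**
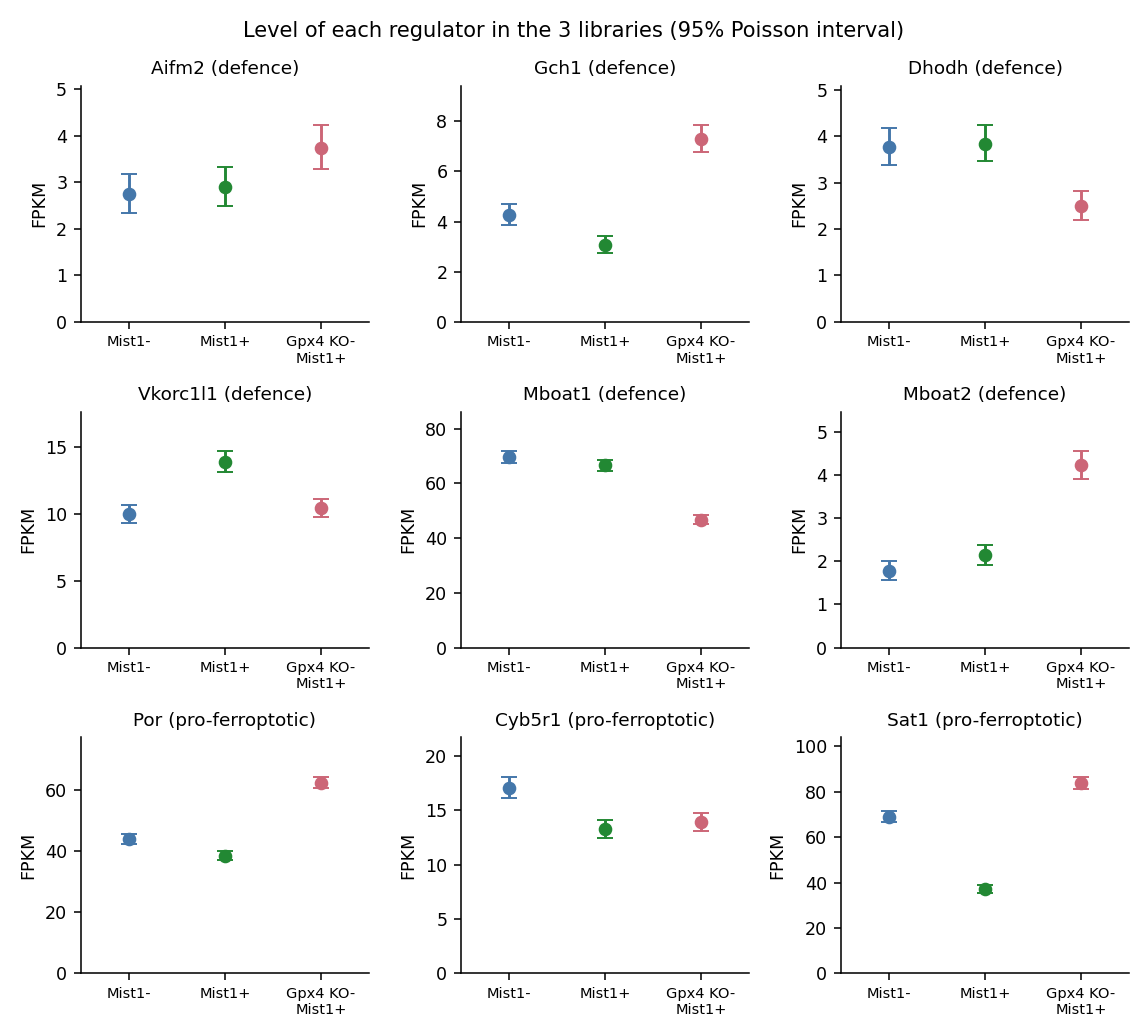
Level of each of the 9 genes in FPKM (vertical axes, each starting at 0) in the 3 libraries; points are single libraries and bars are 95% Poisson intervals of the count. Gch1, Mboat2, Aifm2, Por and Sat1 were highest in the library labelled Gpx4 KO-Mist1+, where Dhodh and Mboat1 were lowest.

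Per length, the 9 genes spanned a wide range within each library, and the top of the order differed between libraries. Mboat1, Sat1 and Por were the 3 most abundant in every library, Cyb5r1 and Vkorc1l1 were intermediate, and Gch1, Dhodh, Aifm2 and Mboat2 were the 4 lowest. In Mist1- the first place was shared, with Mboat1 at 69.6 FPKM and Sat1 at 69.0, values whose 95% Poisson intervals overlapped. In Mist1+ Mboat1 led at 66.6 FPKM, and Por at 38.4 and Sat1 at 37.2 could not be separated, nor could Vkorc1l1 and Cyb5r1 or Gch1 and Aifm2. In the library labelled Gpx4 KO-Mist1+ Sat1 led at 84.0 FPKM, followed by Por and then Mboat1, and only the neighbours Mboat2 and Aifm2 had overlapping intervals. The last place went to Mboat2 in Mist1- and Mist1+ and to Dhodh in the labelled knockout. The summed level of the 6 defences was 92.2, 92.4 and 75.0 FPKM in Mist1-, Mist1+ and the labelled knockout, and that of the 3 pro-ferroptotic genes was 130 (Mist1-), 88.8 and 160.3 FPKM. Mboat1 makes up most of the first sum, and without it the other 5 defences summed to 22.5, 25.8 and 28.2 FPKM. The FPKM of all genes summed to 379460, 302663 and 310243 in Mist1-, Mist1+ and the labelled knockout. Comparisons of these sums between libraries therefore depend on scaling, and the sums are given on the deposited FPKM only.

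Setting the labelled knockout against Mist1+ asks how these routes stand when the label says that the central peroxidase is lost. Sat1 and Gch1 were higher by 2-fold or more there, Mboat2 and Por were higher by less, and Mboat1, Dhodh and Vkorc1l1 were lower. Calls at 2-fold were made on the log2 ratio of FPKM plus 1. By that rule 2 of 9 genes were higher, beside 4.81% of all 13351 tested genes, and none was lower, beside 2.74%. Each fold is a ratio of 2 counts after division by the library totals, with an exact 95% interval. The intervals lay above 1 for 5 of the 9 genes (25.2% of all tested genes) and below 1 for 3 (40.5%), and Cyb5r1 alone had an interval that held 1. On the log2 scale 6 of 9 ratios were above 0, beside 40.7% of tested genes, with a median of 0.29 beside -0.09. All 9 genes kept the sign of their log2 ratio under every setting in which they were tested.

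Among the defences, Gch1, the first and rate-limiting enzyme of tetrahydrobiopterin synthesis, differed most. It had 399 counts in Mist1-, 311 in Mist1+ and 748 in the labelled knockout, or 4.27 (3.86 to 4.71), 3.07 (2.74 to 3.43) and 7.30 (6.79 to 7.84) FPKM. The labelled knockout was the highest and Mist1+ the lowest, with no overlap of the intervals. Relative to Mist1+ the fold was 2.37 (2.08 to 2.72), a log2 ratio of 1.03 that lies above 95.5% of tested genes. With a pseudocount of 5 the log2 ratio was 0.61 and Gch1 was no longer called.

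The other genes of the tetrahydrobiopterin pathway were not higher along with Gch1. Of 10 listed genes 9 passed the filter, and Gch1 was the only one called. It also had the only interval above 1, while 4 had intervals below 1, beside 25.2% and 40.5% of all tested genes. Singled out after their values were seen were the other enzymes of the synthesis itself, Pts, the second one, with a fold of 0.516 (0.467 to 0.570), and Spr, the last one, with 0.737 (0.667 to 0.816). The feedback regulator gene Gchfr had 5, 3 and 2 counts and was not tested. Pcbd2 and Cbr1 had folds of 0.791 (0.633 to 0.986) and 0.987 (0.941 to 1.04). The list's median log2 ratio was -0.10 beside -0.09 for all genes.

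Mboat1 and Mboat2, paralogous acyltransferases of lysophospholipids, went in opposite directions. Mboat1 was at 69.6 (67.4 to 71.9), 66.6 (64.5 to 68.7) and 46.8 (45.0 to 48.5) FPKM in Mist1-, Mist1+ and the labelled knockout. Mboat2 was at 1.78 (1.57 to 2.01), 2.14 (1.92 to 2.38) and 4.23 (3.91 to 4.56) FPKM, so the labelled knockout was the lowest library for one and the highest for the other. The fold against Mist1+ was 0.702 (0.669 to 0.737) for Mboat1 and 1.97 (1.73 to 2.26) for Mboat2. Mboat1 thus stood 39.1-fold above Mboat2 per length in Mist1-, 31.1-fold in Mist1+ and 11.1-fold in the labelled knockout. These genes differ in exonic length (3659 and 9566 bases), and ratios to Mist1- went with length over all genes. With that trend removed, Mist1+ against Mist1- had log2 ratios of -0.13 for Mboat1 and -0.43 for Mboat2. The fall from 39.1 to 31.1 did not hold under that step. For the labelled knockout against Mist1+ the log2 ratios were then -0.37 and 0.80. Estrogen receptor is known to drive Mboat1 transcription in other cells. Here the receptor genes were under an FPKM of 1 in every library, with 1, 2 and 9 counts for Esr1 and 0 for Esr2. The part of estrogen receptor in the levels of Mboat1 was not tested. Of 11 membrane-bound acyltransferase genes of this family 8 passed the filter, and Soat2, which esterifies cholesterol, was the only one called, with a fold of 4.22 (3.41 to 5.27) in the labelled knockout against Mist1+. Dgat1, which makes triglycerides, had a fold of 0.585 (0.502 to 0.681), and Lpcat3, which puts polyunsaturated tails on phospholipids, one of 1.07 (1.02 to 1.12).

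Dhodh, the mitochondrial enzyme of pyrimidine synthesis that hands its electrons to ubiquinone, was at 3.77 (3.39 to 4.18), 3.84 (3.47 to 4.24) and 2.5 (2.205 to 2.82) FPKM. Only the labelled knockout stood apart, below both wild-type libraries. Its fold against Mist1+ was 0.651 (0.554 to 0.763). Of 6 tested pyrimidine genes 5, Dhodh included, had intervals below 1, beside 40.5% of all tested genes. Ctps, a synthase of cytidine nucleotides, had one above 1 at 1.26 (1.17 to 1.35), beside 25.2%. The list's median log2 ratio was -0.48 beside -0.09 for all genes, and none of the 6 was called at 2-fold. Umps, which completes the pathway, had a fold of 0.545 (0.499 to 0.596), Cad, which starts it, 0.595 (0.551 to 0.642), and Cmpk1 0.702 (0.664 to 0.742).

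Aifm2 was low in all libraries, at 2.74 (2.34 to 3.19), 2.89 (2.497 to 3.33) and 3.74 (3.29 to 4.23) FPKM, and the fold of the labelled knockout against Mist1+ was 1.29 (1.07 to 1.57). The intervals of the wild-type libraries overlapped each other, and that of Mist1+ also touched that of the labelled knockout. Aifm2 needs a myristoyl group to reach the plasma membrane. Of the transferase genes, Nmt2 had 6.41, 9.70 and 12.8 FPKM, with a fold of 1.32 (1.21 to 1.43). Nmt1 was more abundant, at 23.2, 23.2 and 20.2 FPKM, and went the other way, with a fold of 0.871 (0.815 to 0.931). Nqo1, another quinone reductase, was at 13.7, 4.18 and 9.03 FPKM, which gives 2.16 (1.71 to 2.75) for the labelled knockout against Mist1+ and a log2 ratio of 0.95, just under the call. Nqo2 had a fold of 0.607 (0.527 to 0.699). Of 15 tested genes around ubiquinone synthesis none was called in this comparison. Their intervals lay above 1 for 5 and below for 7, beside 25.2% and 40.5% of all tested genes. Coq10b had a fold of 0.599 (0.519 to 0.691), Pdss1, which makes the isoprenoid tail, 0.598 (0.480 to 0.743) and Coq7 0.681 (0.562 to 0.825).

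Vkorc1l1, a reductase of vitamin K and its epoxide, was at 9.97 (9.28 to 10.7), 13.9 (13.1 to 14.7) and 10.4 (9.76 to 11.1) FPKM. Mist1+ was the highest, and the other two libraries could not be separated. The fold of the labelled knockout against Mist1+ was 0.751 (0.688 to 0.820). Its paralog Vkorc1, the main enzyme of the vitamin K cycle in liver, had the other order, with 46.4, 22.7 and 25.99 FPKM and a fold of 1.15 (0.983 to 1.34). The carboxylase gene Ggcx, which uses reduced vitamin K, was at 9.37, 14.4 and 11.8 FPKM, with Mist1+ highest as for Vkorc1l1, and its fold was 0.813 (0.730 to 0.905).

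Of the pro-ferroptotic genes, Sat1 and Por were higher in the labelled knockout than in Mist1+ and Cyb5r1 could not be separated from 1. Sat1, the rate-limiting enzyme of polyamine breakdown, had 2861, 1669 and 3820 counts, or 69.0 (66.5 to 71.6), 37.2 (35.4 to 39.0) and 84.0 (81.3 to 86.7) FPKM. Mist1+ was lowest and the labelled knockout highest, with all 3 intervals apart. The fold was 2.26 (2.13 to 2.39) and its log2 ratio, 1.15, was above 96.5% of tested genes. Por, the reductase that supplies electrons to cytochromes P450, was at 43.9 (42.3 to 45.6), 38.4 (36.9 to 39.9) and 62.4 (60.5 to 64.3) FPKM, again with Mist1+ lowest, and its fold was 1.63 (1.55 to 1.71). Cyb5r1, a cytochrome b5 reductase, was at 17.1 (16.1 to 18.1), 13.3 (12.5 to 14.2) and 13.9 (13.1 to 14.8) FPKM, with a fold of 1.05 (0.957 to 1.14).

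Around Sat1, the other polyamine genes differed in both directions. Of 18 listed genes 15 passed the filter, of which 3 were called higher and none lower, beside 4.81% and 2.74% of all tested genes. There were 9 intervals above 1 and 6 below, beside 25.2% and 40.5%. The list's median log2 ratio was 0.25 beside -0.09 for all genes. Over the 12 genes left by a filter at 5 FPKM it was -0.06 beside -0.12. The 3 called were Sat1, its relative Sat2 and Slc3a2 at 2.15 (2.01 to 2.30), a chain of amino acid transporters that has also been tied to polyamine export. Sat2 had 18, 10 and 63 counts, or 0.85, 0.43 and 2.70 FPKM, so it passed the filter only through the labelled knockout, where it was high, and its fold of 6.22 (3.17 to 13.6) gives no support to the count of 3. The same holds for Azin2, at 0.81, 0.54 and 1.02 FPKM, among the 9 intervals above 1. The following genes were singled out after their values were seen. The oxidase gene Paox, which acts on acetylated polyamines, had a fold of 1.85 (1.65 to 2.08). Ornithine decarboxylase, Odc1, which starts synthesis, had 0.507 (0.480 to 0.535), and the spermidine synthase gene Srm 0.740 (0.662 to 0.826), but the spermine synthase gene Sms had 1.27 (1.16 to 1.39). Related genes also lay on both sides of 1: the antizymes Oaz1 at 0.799 (0.767 to 0.832) and Oaz2 at 1.201 (1.08 to 1.34), and the transporters Atp13a2 at 0.707 (0.637 to 0.785) and Atp13a3 at 1.15 (1.11 to 1.198). Alox15, a lipoxygenase reported to act downstream of Sat1 in other cells, had 48, 33 and 21 counts, and it was the only one of 8 lipoxygenase genes in the list to reach an FPKM of 1 in any library. Its fold was 0.628 (0.345 to 1.12).

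Por and Cyb5r1 stood among 11 tested reductase and cytochrome b5 genes, none of which was called at 2-fold in this comparison. Their median log2 ratio was -0.05 beside -0.09 for all genes. Of the intervals 2 lay above 1 and 5 below, beside 25.2% and 40.5% of all tested genes. Cyb5a, the electron carrier of the endoplasmic reticulum, had a fold of 0.966 (0.913 to 1.02), Cyb5d1 1.13 (0.935 to 1.38) and Ndor1, read from the 1 of its 3 rows whose identifier is in the reference, 0.762 (0.628 to 0.925).

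**Figure D2:**
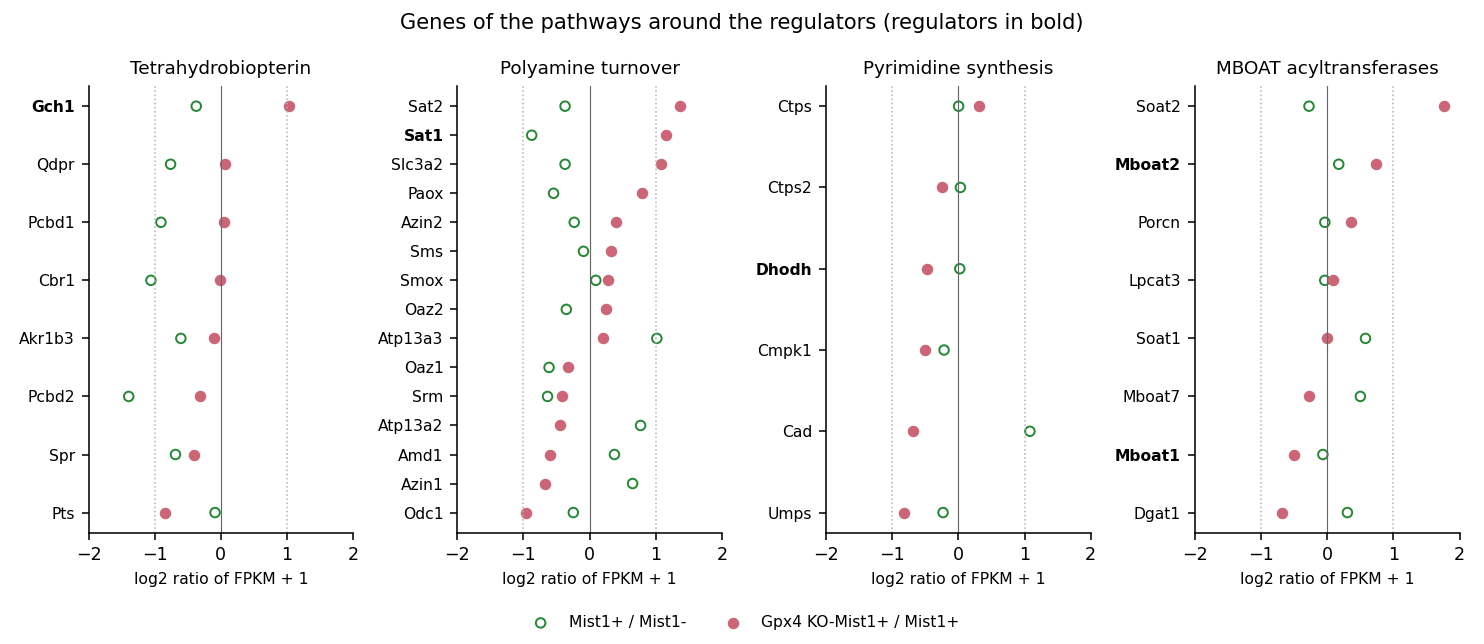
Log2 ratios of FPKM plus 1 (horizontal axes, dotted lines at 2-fold) for tested genes of 4 pathway lists, with open green circles for Mist1+ against Mist1- and filled red circles for the library labelled Gpx4 KO-Mist1+ against Mist1+; each point is a ratio of single libraries. Gch1 at 1.03 stood alone above the other tetrahydrobiopterin genes, Sat1 at 1.15 was far above Odc1 at -0.96 in the polyamine list (Sat2 and Azin2 passed the filter only through the labelled knockout), and 5 of 6 pyrimidine genes were below 0.

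Markers of gastric cell types also differed between the libraries. The summed level of 5 mucous neck cell genes was 1199 FPKM in Mist1-, 816 in Mist1+ and 2033 in the labelled knockout, all 5 being above an FPKM of 1 in each library. The order of this sum is that of Sat1, Gch1 and Por, but 2 genes set it, Gkn3 (861, 624 and 1320 FPKM) and Aqp5 (146, 97.2 and 568). The other 3 had other orders: Tff2 was at 178, 52.5 and 111 FPKM, A4gnt at 8.37, 22.3 and 13.9 and Muc6 at 5.71, 20.0 and 20.6. The sum over 6 chief cell genes was 2032, 3554 and 2643 FPKM, highest in Mist1+ and lowest in Mist1-, with Pga5 at 0 in all libraries. Pgc made up most of that sum, and Cckar differed from it, at 13.8, 48.0 and 1.97 FPKM. For 4 pit cell genes the sums were 713, 98.0 and 90.4 FPKM. The 3 of them that were tested were all called lower in Mist1+ than in Mist1-, with a median log2 ratio of -2.84. For 4 parietal cell genes the sums were 31.9, 41.6 and 48.7 FPKM, with Atp4b and Slc26a7 at 0. In these bulk libraries a change in the number of cells of a type cannot be told apart from a change in RNA per cell, and the part of cell makeup in the results on the 9 genes was not tested.

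The comparison of Mist1+ with Mist1- asks whether organoids from cells with Mist1 activity differ in these routes from those without it. Sat1, Cyb5r1 and Gch1 were lower in Mist1+ and Vkorc1l1 was higher, directions that held under every setting run. On TPM, however, the log2 ratio was only -0.04 for Cyb5r1 and -0.14 for Gch1. None of the 9 genes was called at 2-fold, beside 7.88% of tested genes called higher and 5.73% called lower. Sat1 had a fold of 0.539 (0.507 to 0.572), which is 1.86-fold (1.75 to 1.97) lower, Gch1 0.720 (0.618 to 0.837), Cyb5r1 0.778 (0.713 to 0.849) and Vkorc1l1 1.39 (1.27 to 1.53). The remaining genes lay closer to 1 and their signs changed under some setting. Aifm2 at 1.05 (0.853 to 1.30) and Dhodh at 1.02 (0.881 to 1.18) had a log2 ratio below 0 with median ratio scaling and with the length trend removed, Mboat2 at 1.21 (1.02 to 1.43) with the length trend removed, and Mboat1 at 0.956 (0.914 to 1.0) and Por at 0.874 (0.827 to 0.923) had one above 0 on TPM. Intervals above 1 were found for 2 of the 9 genes, beside 44.9% of tested genes, and intervals below 1 for 5, beside 28.6%. The log2 ratio was above 0 for 4 of 9 genes, beside 58.8%, with a median of -0.06 beside 0.15. All 9 tested tetrahydrobiopterin genes had log2 ratios below 0 in Mist1+ (a median of -0.69 beside 0.15 for all genes), and 8 of the 9 did on TPM, with a median of -0.39 beside 0.45. Pcbd2 at 0.370 (0.310 to 0.440) and Cbr1 at 0.477 (0.458 to 0.498) were called lower. So were Nqo1 at 0.305 (0.242 to 0.381) and Vkorc1 at 0.489 (0.424 to 0.562), while Cad, at 2.30 (2.11 to 2.52), was called higher. With the length trend removed, 3 of these 5 calls were lost: the log2 ratio of Vkorc1 was -0.56 in place of -1.002, that of Cad 0.55 in place of 1.08 and that of Cbr1 -0.89 in place of -1.06. Pcbd2 at -1.02 and Nqo1 at -1.08 remained called.

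The ratio of Mist1+ to Mist1- went with exonic length, and the 9 genes differ in length from 2774 bases (Sat1) to 9566 (Mboat2). Across the 13351 tested genes the Spearman rho of length and log2 ratio was 0.49 for Mist1+ against Mist1-, -0.02 for the labelled knockout against Mist1+ and 0.39 for the labelled knockout against Mist1-; genes of 1 library pair share that pair and are not independent. In the length group that holds Sat1 (1562 to 3029 bases) the median log2 ratio for Mist1+ against Mist1- was -0.23, and in that of Mboat2 (6954 bases and longer) it was 0.63. With the trend removed the log2 ratio of Sat1 changed from -0.88 to -0.76, at percentile 7.60 of tested genes, and that of Gch1 from -0.37 to -0.77, at percentile 7.39. Vkorc1l1 changed from 0.44 to 0.14 and Mboat2 from 0.18 to -0.43. For the labelled knockout against Mist1+ the same step left Sat1 at 1.27 and Gch1 at 1.14.

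**Figure D3:**
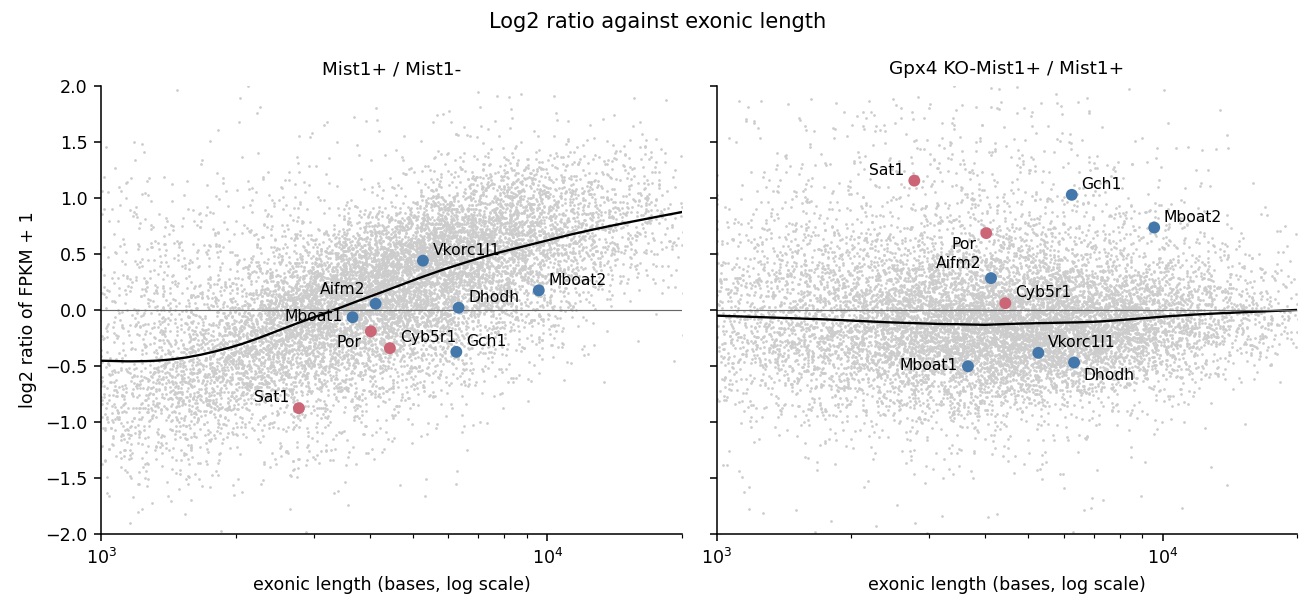
Log2 ratio of FPKM plus 1 (vertical axis) against exonic length in bases (horizontal log axis) for tested genes (grey; those beyond the axes are not drawn), with the lowess trend as a black line, defences in blue and pro-ferroptotic genes in red. On the left, Mist1+ against Mist1-, the trend climbs with length (rho 0.49) and Sat1 at -0.88 and Gch1 at -0.37 lie below it; on the right, the labelled knockout against Mist1+, it is flat (rho -0.02).

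Scaling mattered for this pair. On FPKM rescaled to a common sum (TPM) the median log2 ratio of all tested genes was 0.45 in place of 0.15, and it was -0.00 with median ratio scaling. The numbers of genes at least 2-fold higher and lower were 1052 and 765 as deposited, 3795 and 673 on TPM, 1594 and 680 on CPM (counts scaled to library totals) and 687 and 1139 with median ratio scaling. The filter and the pseudocount of 1 were applied to the rescaled values. The genes tested thus numbered 13351 as deposited, 16770 on TPM, 14217 on CPM and 13313 with median ratio scaling. These counts therefore differ in more than the scaling. Sat1 reached -1.07 with median ratio scaling, where it was called lower, and stood at -0.56 on TPM.

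Between the library labelled Gpx4 KO-Mist1+ and Mist1-, which share each library with one of the comparisons above, no gene of the 9 was called at 2-fold, beside 11.6% of tested genes called higher and 8.56% called lower. Intervals lay above 1 for 5 of the 9 genes, beside 42.4% of tested genes, and below 1 for 3, beside 34.3%. Log2 ratios above 0 were found for 6 of 9, beside 54.3%. On TPM the split of all genes was 4076 to 998 of 16770 tested, in place of 1553 to 1143 of 13351. Mboat2 had a fold of 2.38 (2.06 to 2.76) in its counts, but a log2 ratio of 0.91 because 1 is added to its low FPKM. With the length trend removed the log2 ratio of Mboat2 was 0.35, that of Gch1 was 0.35 in place of 0.66, that of Dhodh -0.76 in place of -0.45 and that of Sat1 0.48 in place of 0.28. On TPM, Mboat2 and Gch1 were called higher. Gch1 had a fold of 1.71 (1.51 to 1.93), Por 1.42 (1.35 to 1.49), Aifm2 1.36 (1.12 to 1.67) and Sat1 1.22 (1.16 to 1.28). Mboat1 at 0.671 (0.639 to 0.705), Dhodh at 0.663 (0.563 to 0.780) and Cyb5r1 at 0.814 (0.747 to 0.887) were lower, and Vkorc1l1 at 1.05 (0.95 to 1.15) could not be separated from 1. On TPM the log2 ratio of Cyb5r1 was only -0.006 in place of -0.28. Those of Mboat1 and Dhodh were -0.28 and -0.27 in place of -0.56 and -0.45. Aifm2, Gch1, Mboat2, Por and Sat1 were thus above both wild-type libraries in the labelled knockout, and Dhodh and Mboat1 below both.

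**Figure D4:**
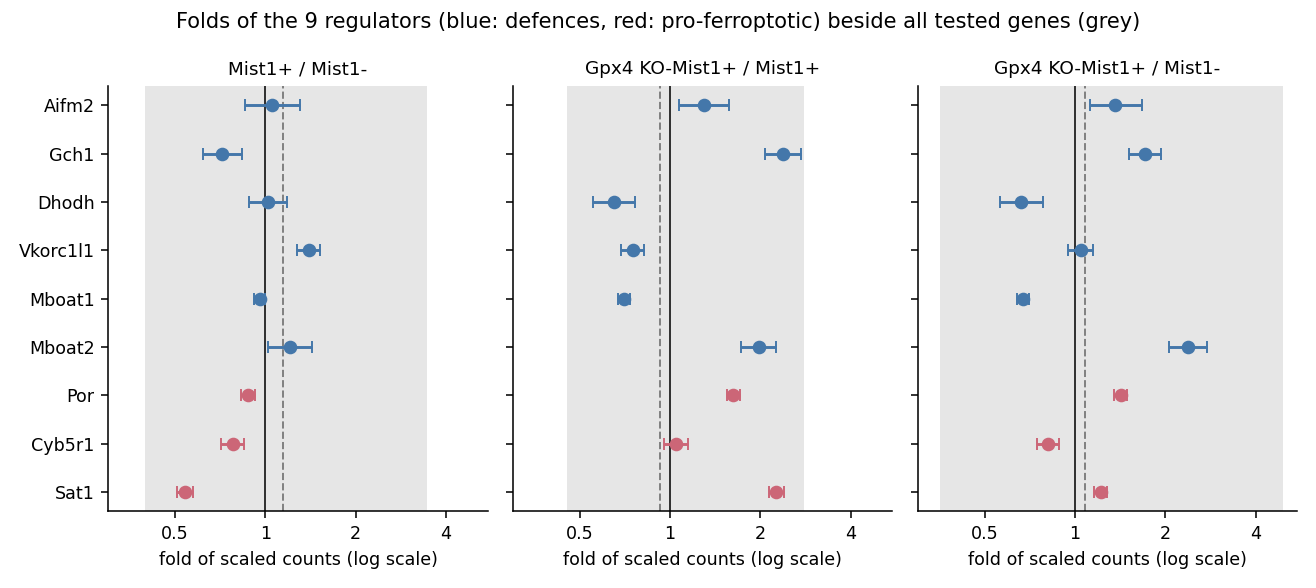
Fold of scaled counts (horizontal log axes) of the 9 genes in the 3 comparisons; points are ratios of single libraries, bars are exact 95% intervals for counting error, the grey band runs from the 5th to the 95th percentile of all 13351 tested genes and the dashed line is their median. For the labelled knockout against Mist1+, Gch1 at 2.37 and Sat1 at 2.26 lie farthest to the right and Dhodh at 0.651 farthest to the left, all inside the band on this scale.

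The genes whose pair of log2 ratios (Mist1+ against Mist1-, then the labelled knockout against Mist1+) lay nearest to those of the 3 widest-ranging members were looked up among 7699 genes with a mean FPKM of at least 5. For Sat1, which has -0.88 and 1.15, these were the cytokine gene Tnf (-0.87 and 1.17), the glycolytic gene Pkm (-0.84 and 1.22) and the receptor gene Tnfrsf4 (-0.88 and 1.06), the only 3 within a distance of 0.1. For Gch1 they were the glycolytic gene Pgam1 (-0.38 and 1.04), Hmga1 (-0.38 and 1.01) and Slc3a2 (-0.37 and 1.07), with 8 genes within 0.1. For Mboat2 they were Epb41l4b, C9orf72 and Clic6, with 22 genes within 0.1. Likeness over 3 libraries rests on 2 ratios and describes these libraries only. Among the 9 genes themselves the nearest pair was Dhodh and Mboat1, at a distance of 0.09.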

How the data were processed

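The tools named in the submitters' processing notes are HISAT2 2.2.1, HTSeq 0.6.1 and cutadapt 1.9.1, and the build is GRCm38.p5, with no role or order given; the annotation release is not given in the sources used here. Per the file headers, the authors deposited for each library a read count per gene and an FPKM. The deposited FPKM were checked against count, exonic length and library total over genes with at least 50 counts, and deviated by at most 2.77%. Depth was 14943918, 16187378 and 16396693 counts in Mist1-, Mist1+ and Gpx4 KO-Mist1+.

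The 13351 genes that reached an FPKM of 1 in any library were tested, all 9 members among them. Log2 ratios used FPKM plus a pseudocount of 1. Levels have exact 95% Poisson intervals, and the exact interval of a fold comes from a binomial model of how 2 counts divide. No p-value was computed, since each group had 1 library. The members and the 10 pathway and 9 marker lists were chosen with earlier results of these data known, and 2 listed genes are not reported individually here. Named from each pathway list were up to 3 genes with the largest log2 ratio of either sign in the first 2 comparisons. Other genes of these lists, Lpcat3, Ctps and Nmt1 among them, were named outside this rule. Computation used scipy 1.17.1 for intervals, statsmodels 0.14.6 for lowess, matplotlib 3.10.9 for plots and pandas 2.3.3 with numpy 2.4.6 on Python 3.11.15. Calls and intervals were tried on simulated Poisson counts that had no spread between cultures, so that trial covers counting error only. As alternatives, the pseudocount was set to 0.1 or 5, the filter was dropped or raised to 5 FPKM, and scaling was by TPM, median ratio or CPM. Others were cutoffs of 1.5-fold and 4-fold and removal of a lowess trend on exonic length (fraction 0.3). Promoter sequences are from RefSeq on GRCm38.p6.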

Additional observations from a re-analysis of the deposited data

How the results depend on the processing

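For the library labelled Gpx4 KO-Mist1+ against Mist1+, the count of members at least 2-fold higher was 2, and it was 1 with a pseudocount of 5, 4 with a cutoff of 1.5-fold and 0 with one of 4-fold. For Mist1+ against Mist1-, 1 member in place of 0 was lower with median ratio scaling and with a cutoff of 1.5-fold. For the labelled knockout against Mist1-, 1 member in place of 0 was higher with a pseudocount of 0.1 and on CPM, and 2 were on TPM and with a cutoff of 1.5-fold. The other settings left the counts of members the same. Over all genes, the labelled knockout had 642 genes higher and 366 lower than Mist1+, and 1348 and 1100 on TPM, 1027 and 773 with a pseudocount of 0.1, 226 and 70 with one of 5, 374 and 201 at an FPKM of at least 5, 1414 and 1513 at 1.5-fold and 120 and 31 at 4-fold. Mist1+ had 1052 higher and 765 lower than Mist1-, and 1986 and 1129 with a pseudocount of 0.1, 129 and 396 with one of 5, 649 and 616 at an FPKM of at least 5, 584 and 516 with the length trend removed, 3164 and 2003 at 1.5-fold and 81 and 38 at 4-fold. The labelled knockout had 1553 higher and 1143 lower than Mist1-, and 2476 and 1621 with a pseudocount of 0.1, 349 and 564 with one of 5, 963 and 953 at an FPKM of at least 5, 3421 and 2686 at 1.5-fold and 165 and 75 at 4-fold. For that pair the counts were 1381 and 1380 with median ratio scaling, 1050 and 813 with the length trend removed and 2200 and 1160 on CPM. In place of 13351 genes, 16770 were tested on TPM, 14217 on CPM, 13313 with median ratio scaling and 8704 at an FPKM of at least 5. A filter at that FPKM leaves 6 of the 9 members. Gch1, at 4.27, 3.07 and 7.30 FPKM in Mist1-, Mist1+ and the labelled knockout, passed it only through the library where it was high. Its call under that filter gives no support to the count of 2. The sign of the log2 ratio changed under some setting for 5 members in Mist1+ against Mist1-, for 1 in the labelled knockout against Mist1- and for 0 in the labelled knockout against Mist1+. The cause was not tested. No paired analysis was possible because each group has 1 library. Counts of 169 to 664 for Aifm2, Mboat2 and Dhodh limit their precision, and the spread between cultures is unknown.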
